A study of Mus musculus with 18 samples.

Results

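Secretory products of the airway lining were followed in the larynx: the secretoglobins Scgb1a1, Scgb3a2 and Scgb3a1, the surfactant collectins Sftpa1 and Sftpd, the surfactant protein gene Sftpb, and Cyp2f2, a cytochrome P450 gene of club cells. They were taken by gene name from a table of 54532 genes. All 7 were found, and all 7 were among the 17537 genes with enough counts to be tested. Club cells are non-ciliated secretory cells of the airway surface that release secretoglobins, small proteins that damp inflammation, and that carry much of the airway's oxidative metabolism of inhaled chemicals. Collectins are secreted lectins that bind sugars on microbes and particles and mark them for uptake by phagocytes. Sftpb belongs to the surfactant system but is no collectin: its product is a hydrophobic protein that helps phospholipid spread at the air-liquid surface.

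Whole larynges of male C57BL6/J mice aged 8 to 9 weeks were profiled by mRNA sequencing in 3 groups of 6 libraries. The groups had breathed smoke of 3R4F research cigarettes, aerosol of JUUL Virginia tobacco e-cigarettes, or room air in a whole-body chamber, for 1 hour a day on 5 days a week over 4 weeks. They are called smoke, e-cigarette and air below, and libraries are named by group and replicate number. The labels do not tie each library to its own animal, and the p-values therefore reflect library-to-library spread, some of which may be technical. Counts assigned to genes came to 15.9 to 20.3 M per smoke library, 16.7 to 22.5 M per e-cigarette library and 15.6 to 17.1 M per air library.

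A whole larynx holds airway epithelium, glands, cartilage and muscle, and the dissected tissue carried thyroid transcripts in varying amounts. Libraries air 4, 5 and 6 stood apart, by cartilage genes too, which summed to 131 to 162 CPM there and to 429 to 564 CPM in air 1, 2 and 3. A list of glandular acinar genes summed to 17972 to 30059 CPM (counts scaled to a common library size) in smoke libraries, 20139 to 62692 CPM in e-cigarette libraries and 21369 to 29577 CPM in air 1, 2 and 3, against 6682, 1268 and 2497 CPM in air 4, 5 and 6. Ciliated cell genes summed to 512 to 673 CPM in smoke, 723 to 1103 CPM in e-cigarette and 599 to 1055 CPM in air libraries, where air 4, 5 and 6 were the highest of their group. Thyroid genes summed to 58032 to 95535 CPM in smoke and 57034 to 98816 CPM in air libraries, but to 26904 CPM in e-cigarette 1, 29272 CPM in e-cigarette 3 and at most 2924 CPM in e-cigarette 2, 4, 5 and 6. Of 7 alveolar type 2 genes, Lamp3 had no count in any library and Sftpc stayed between 1.20 and 5.86 CPM, while Abca3 averaged 108 CPM in smoke, 55.8 CPM in e-cigarette and 91.7 CPM in air, and Napsa 57.6, 7.82 and 75.6 CPM in the same groups. Other marker lists also shifted. Of 12 airway epithelium genes 6 fell and 1 rose in e-cigarette versus air, and 9 of 13 fast muscle genes rose. All 5 parathyroid genes fell in that comparison (median log2 fold change -7.72). Over all tested genes, 12.1% rose and 13.0% fell in e-cigarette versus air, and 0.616% fell in smoke versus air. Immediate early genes fell for 3 of 8 in smoke versus air and 4 of 8 in e-cigarette versus air (adjusted p below 0.05 by edgeR), all 8 being lower at an unadjusted p below 0.05 in both comparisons. Where these lists move with the genes below, their part was not tested unless a covariate value is given. A score, used as a covariate, is the mean log2 CPM of a list's tested genes. Thyroid scores were at most 5.47 in e-cigarette libraries and at least 6.32 in smoke and air libraries. Ciliated scores were at most 4.24 in smoke and at least 4.40 in e-cigarette libraries. Gland scores were at least 5.71 in smoke and at most 5.30 in air libraries. Fast muscle scores were at least 10.22 in e-cigarette and at most 10.19 in air libraries. Where scores do not overlap between the groups compared, a covariate fit cannot separate the list from the exposure. In bulk tissue, fewer cells of a type and less RNA per cell cannot be told apart.

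RefSeq promoter windows (GRCm38.p6, 250 bases before and 50 after the start site) are shown for 4 of the genes, since Nkx2-1, a regulator of Sftpb and of club cell genes, differed between groups. Capitals mark CTCAAG, the core letters bound by NKX2-1, and TGTTTNC, the core letters bound by FOXA factors, on either strand.
Scgb3a1 promoter, chr11:49663345-49663644, plus strand: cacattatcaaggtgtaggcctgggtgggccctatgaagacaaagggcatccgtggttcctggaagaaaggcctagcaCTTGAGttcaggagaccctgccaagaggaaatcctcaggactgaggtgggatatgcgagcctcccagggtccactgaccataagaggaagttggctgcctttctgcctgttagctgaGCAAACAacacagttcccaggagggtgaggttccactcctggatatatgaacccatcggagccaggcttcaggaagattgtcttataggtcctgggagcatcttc
Sftpa1 promoter, chr14:41131538-41131837, plus strand: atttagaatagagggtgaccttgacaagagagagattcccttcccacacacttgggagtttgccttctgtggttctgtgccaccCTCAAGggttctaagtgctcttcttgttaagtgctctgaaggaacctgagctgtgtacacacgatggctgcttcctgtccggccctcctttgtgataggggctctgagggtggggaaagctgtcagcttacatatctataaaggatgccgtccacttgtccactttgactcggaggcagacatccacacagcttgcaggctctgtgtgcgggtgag
Sftpb promoter, chr6:72304360-72304659, plus strand: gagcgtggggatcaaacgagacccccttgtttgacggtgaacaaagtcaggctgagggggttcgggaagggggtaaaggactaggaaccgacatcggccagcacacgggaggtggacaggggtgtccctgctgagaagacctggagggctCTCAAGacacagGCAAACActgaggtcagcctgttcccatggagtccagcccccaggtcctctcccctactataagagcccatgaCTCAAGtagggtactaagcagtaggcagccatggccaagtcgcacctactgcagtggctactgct
Cyp2f2 promoter, chr7:27119705-27120004, plus strand: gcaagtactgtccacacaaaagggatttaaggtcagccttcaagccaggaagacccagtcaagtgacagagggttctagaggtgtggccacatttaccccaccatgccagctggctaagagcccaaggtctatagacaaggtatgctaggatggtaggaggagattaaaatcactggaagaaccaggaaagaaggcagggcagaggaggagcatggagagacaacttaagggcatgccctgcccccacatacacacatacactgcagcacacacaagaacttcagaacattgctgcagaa
The Sftpb window held CTCAAG at -100 and -15 and the FOXA letters at -88, counted from the start site at 0. The Scgb3a1 window held CTCAAG on the minus strand at -172 and the FOXA letters at -55. Sftpa1 had CTCAAG at -166 and TATAAA at -30, and the Cyp2f2 window held none of the motifs searched. The AP-1 letters TGANTCA were found at -18 of Sftpb, where they overlap the CTCAAG at -15. Of 32851 mouse promoter windows of the same length, 15.9% held CTCAAG, 20.5% TGTTTNC, 7.81% TGANTCA and 13.6% TATAAA on either strand. These are letter matches and not measured sites.

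The 3 secretoglobin genes lie on different chromosomes. In the deposited coordinates (GRCm38), Scgb1a1 (ENSMUSG00000024653) spans chr19:9083636-9087958 on the minus strand, Scgb3a1 (ENSMUSG00000064057) chr11:49663610-49665118 on the plus strand and Scgb3a2 (ENSMUSG00000038791) chr18:43764289-43767399 on the plus strand. The collectin genes are neighbours on chromosome 14. Sftpa1 (ENSMUSG00000021789) spans chr14:41131782-41136452 on the plus strand and Sftpd (ENSMUSG00000021795) chr14:41172214-41185149 on the minus strand. Between them lie Mbl1, the gene of a mannose-binding collectin, with 9 counts over all 18 libraries, and the pseudogene Gm7920 with 2 counts. Sftpb (ENSMUSG00000056370) spans chr6:72304610-72314371 and Cyp2f2 (ENSMUSG00000052974) chr7:27119909-27133660, both on the plus strand. Cyp2f2 was the only gene of the 7 to overlap another gene, the antisense transcript Gm15883 with 12547 counts, beside 613522 counts for Cyp2f2. The library kit does not mark strand, so reads from the shared stretch cannot be assigned to 1 of them.

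The genes covered a wide range of levels. Per kilobase of transcript, Scgb3a1 averaged 2154 ± 373 CPM per kilobase in smoke, 3066 ± 753 in e-cigarette and 1667 ± 591 in air libraries (SD, n = 6 each), which placed it between rank 19 and rank 21 of 17537 tested genes. Cyp2f2 followed with mean levels of 912, 1090.3 and 842 CPM per kilobase in smoke, e-cigarette and air, then Scgb1a1 with 592, 499 and 817, and Scgb3a2 with 349, 412 and 640. The surfactant genes were far lower. Sftpd averaged 11.0 CPM per kilobase in smoke, 17.6 in e-cigarette and 19.6 in air, Sftpa1 1.499, 3.27 and 4.56, and Sftpb 0.443, 0.0822 and 0.873. The order of the means was the same in the 3 groups. Over single libraries the order was less firm. In air, Cyp2f2, Scgb1a1 and Scgb3a2 overlapped, Scgb3a1 (lowest library 1104 CPM per kilobase) overlapped Scgb1a1 (highest 1108) and Scgb3a2 (highest 1135), and Sftpb (highest 2.28) overlapped Sftpa1 (lowest 1.88). In smoke and e-cigarette, Scgb1a1 and Scgb3a2 were the only neighbours in the order whose libraries overlapped.

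**Figure D1:**
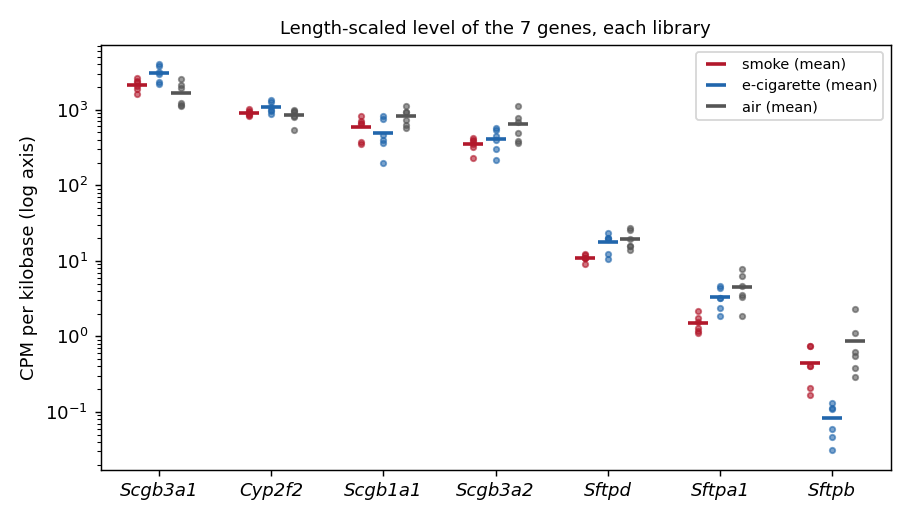
Length-scaled level (CPM per kilobase, log axis) of the 7 genes in every library; points are libraries, horizontal marks are group means, and groups run smoke, e-cigarette, air from left to right. Scgb3a1 has the highest and Sftpb the lowest mean in each group, and the e-cigarette points of Sftpb lie below those of smoke and air. In air, single libraries of Scgb3a1 overlap those of Scgb1a1 and Scgb3a2, and those of Sftpb overlap those of Sftpa1.

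The comparisons asked whether the genes' levels differed after the exposures. "Called", "rose" and "fell" refer to a Benjamini-Hochberg adjusted p below 0.05 from edgeR's quasi-likelihood test, fitted on all 18 libraries and adjusted over all 17537 tested genes. In smoke versus air, the collectin genes Sftpa1 and Sftpd fell and no gene of the 7 rose. Over all tested genes, 1.59% were called in this comparison, 0.975% higher and 0.616% lower. At an unadjusted p below 0.05, edgeR had 4 of the 7 lower and 0 higher. DESeq2 called 3 lower (Scgb3a2, Sftpa1 and Sftpd) and 0 higher, and limma-voom with sample quality weights called the same 3 lower and Scgb3a1 higher. The median log2 fold change was -0.84 over the 7 genes and 0.01 over all tested genes. Only Sftpd had group ranges that did not overlap, as did 2.43% of all tested genes.

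In e-cigarette versus air, Scgb3a1 and Cyp2f2 rose, Sftpb fell, and the other 4 genes were not called. Here 25.1% of all tested genes were called, 12.1% higher and 13.0% lower, so 3 of 7 is not far from the background of this comparison. The median log2 fold change was -0.48 over the 7 genes and 0.01 over all tested genes. Sftpb alone had ranges that did not overlap, as did 10.5% of all tested genes. In smoke versus e-cigarette, Sftpb was higher in smoke, Sftpa1 and Sftpd were lower, and 4 genes were not called. The background was 16.5% called, 10.4% higher and 6.10% lower, and 9.37% of tested genes had ranges that did not overlap, as Sftpb did. The median log2 fold change was -0.26 over the 7 genes and -0.01 over all tested genes.

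**Figure D2:**
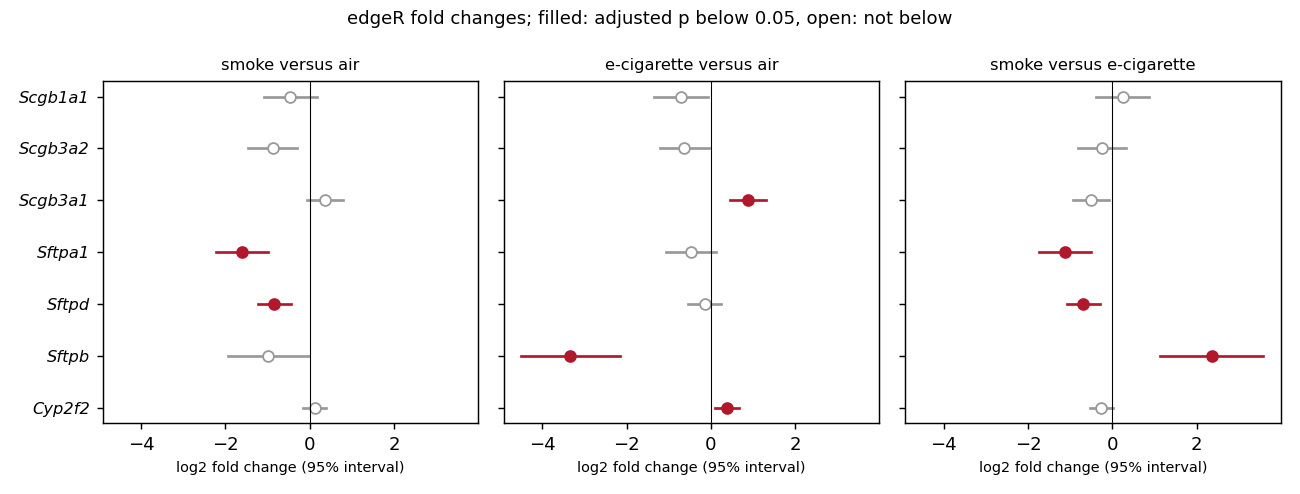
edgeR log2 fold changes with 95% intervals for the 7 genes in the 3 comparisons; filled red points have an adjusted p below 0.05 over all tested genes. Sftpa1 and Sftpd fell in smoke against air and against e-cigarette, and Sftpb was lowest in e-cigarette.

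Scgb1a1, the classical marker and main secretoglobin of club cells, had 166 to 389 CPM in smoke libraries (median 309), 93.6 to 393 CPM in e-cigarette libraries (median 204) and 274 to 527 CPM in air libraries (median 394). The ranges overlapped in every comparison. The low smoke libraries were replicates 5 and 6, and 4 of the 6 e-cigarette libraries lay below the lowest air library. The log2 fold change was -0.46 (95% interval -1.09 to 0.17, adjusted p = 0.405) in smoke versus air and -0.71 (-1.34 to -0.08, adjusted p = 0.0924) in e-cigarette versus air, by edgeR. The e-cigarette difference was called when e-cigarette 1 (-0.93, adjusted p = 0.0294) or e-cigarette 6 (-0.88, adjusted p = 0.0466) was left out, and also by DESeq2 and voom. The log2 fold change in smoke versus e-cigarette was 0.25 (-0.38 to 0.88, adjusted p = 0.623). With the thyroid score as a covariate, e-cigarette versus air turned to 0.22 and smoke versus e-cigarette to -0.63. In these comparisons that fit called 48 and 0 of all tested genes. Thyroid scores did not overlap between the groups, so neither value separates thyroid content from exposure.

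Scgb3a2, a secretoglobin of the conducting airways, had 200 to 368 CPM in smoke (median 323), 188 to 497 CPM in e-cigarette (median 376) and 322 to 999 CPM in air (median 516). The 3 highest libraries of the study were air 4, 5 and 6, with 603, 999 and 691 CPM, and air 1, 2 and 3 lay at 322, 430 and 335 CPM, among the smoke and e-cigarette values. All 6 smoke libraries and all 6 e-cigarette libraries were below the air mean of 563 CPM. The log2 fold change was -0.87 (-1.45 to -0.29, adjusted p = 0.0982) in smoke versus air, -0.63 (-1.21 to -0.06, adjusted p = 0.101) in e-cigarette versus air and -0.24 (-0.82 to 0.34, adjusted p = 0.601) in smoke versus e-cigarette. Without air 4, 5 and 6 the difference of smoke from air was -0.26, with the ciliated score it was -0.13, and without air 1, 2 and 3 it was -1.32.

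Scgb3a1, the most abundant of the 3 and also a product of airway glands, ran the other way. It had 970.3 to 1587 CPM in smoke (median 1306), 1309.8 to 2409 CPM in e-cigarette (median 1815) and 660.2 to 1501 CPM in air (median 939.7). Air 4, 5 and 6 were the lowest of the 18 libraries, with 724, 660.2 and 690 CPM, and 4 of 6 e-cigarette libraries exceeded the highest air library. In e-cigarette versus air the log2 fold change was 0.88 (SE 0.21, 95% interval 0.45 to 1.31, adjusted p = 0.00406), which is 1.84-fold, and the call held in each of 18 fits that left out 1 library. In smoke versus air it was 0.37 (-0.06 to 0.80, adjusted p = 0.332), and in smoke versus e-cigarette -0.51 (-0.94 to -0.08, adjusted p = 0.101). The level moved with the gland list across libraries (Pearson r = 0.81 between deviations from the group means over 18 libraries, Scgb3a1 not being in the list). Among smoke libraries alone the order differed. Smoke 3 had the highest Scgb3a1 level and the lowest gland score, and smoke 5 the lowest level at a gland score of 6.16. Smoke 4, with the highest gland score, had 1431 CPM of Scgb3a1. In e-cigarette versus air the difference was 0.49 (adjusted p = 0.0761) without air 4, 5 and 6, 0.20 (adjusted p = 0.471) with the gland score as a covariate, an alternative chosen after seeing the data, and -0.11 (adjusted p = 0.847) with gland, cartilage, thyroid and muscle scores together. Thyroid and fast muscle scores did not overlap between these groups, so the fit with 4 scores cannot separate those tissues from exposure. The value in smoke versus air was -0.037 without air 4, 5 and 6 and -0.27 with the gland score. Gland scores did not overlap between smoke and air libraries, so the latter fit cannot separate gland content from exposure.

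**Figure D3:**
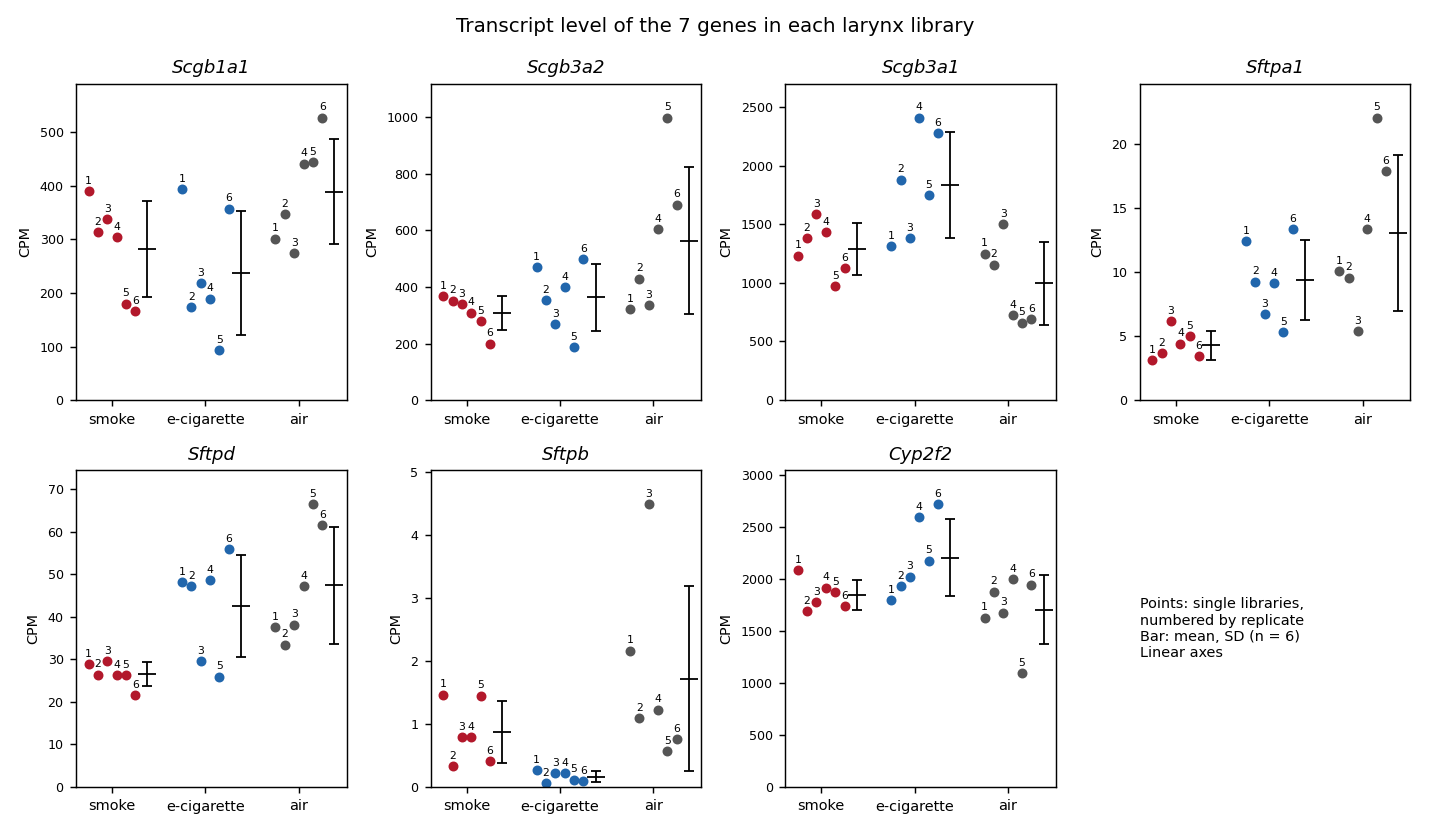
CPM of each gene in every library on linear axes that start at 0; points are libraries numbered by replicate, groups run smoke, e-cigarette, air from left to right, and bars give the group mean and SD (n = 6). Air 4, 5 and 6 hold the highest air values of Scgb1a1, Scgb3a2, Sftpa1 and Sftpd and the lowest of Scgb3a1, and the 6 e-cigarette values of Sftpb lie below every smoke and air value.

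Among the collectins, Sftpa1 encodes surfactant protein A, which binds microbial sugars and surfactant lipid. It had 3.13 to 6.14 CPM in smoke (median 4.03, 49 to 109 counts), 5.31 to 13.3 CPM in e-cigarette (median 9.18, 92 to 290 counts) and 5.39 to 22.0 CPM in air (median 11.7, 84 to 387 counts). Smoke libraries were low as a group: 5 of 6 were under the lowest air library, and 5 of 6 under the lowest e-cigarette library. Sftpa1 fell in smoke versus air by 1.60 on the log2 scale (SE 0.30, adjusted p = 0.0136), to 0.329 times the air level, and this was the 37th smallest p of the comparison. It was lower in smoke than in e-cigarette by a log2 fold change of -1.13 (SE 0.29, adjusted p = 0.0130), and e-cigarette versus air gave -0.48 (-1.07 to 0.11, adjusted p = 0.233). Both calls held in each of 18 fits that left out 1 library, with adjusted p up to 0.0423 against air.

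Sftpd encodes surfactant protein D, the second of these lectins, which also binds fungi and viruses. Its smoke libraries were close together, at 21.7 to 29.6 CPM (median 26.3), against 25.9 to 56.0 CPM in e-cigarette (median 47.7) and 33.5 to 66.5 CPM in air (median 42.7). Every smoke library lay below every air library, and e-cigarette 3 and 5, with 29.7 and 25.9 CPM, lay at the smoke level. The log2 fold change was -0.84 in smoke versus air (SE 0.19, adjusted p = 0.0345), -0.69 in smoke versus e-cigarette (SE 0.19, adjusted p = 0.0182) and -0.15 in e-cigarette versus air (-0.55 to 0.24, adjusted p = 0.590). Against air the call was lost when air 4, 5 or 6 or any 1 of the 6 smoke libraries was left out (log2 fold changes -0.72 to -0.87, highest adjusted p 0.0842), while the call against e-cigarette held in each of 18 such fits.

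The difference of the collectins between smoke and air was smaller without air 4, 5 and 6: -0.98 for Sftpa1 (adjusted p = 0.0710) and -0.48 for Sftpd (adjusted p = 0.181). Of 20 ciliated genes tested, 3 fell, 0 rose and 17 were not called in smoke versus air (median log2 fold change -0.52), with 16 lower and 0 higher at an unadjusted p below 0.05, 9 lower by DESeq2 and 11 lower by voom. In smoke versus e-cigarette 17 of 20 were lower (median -0.78). With the ciliated score as a covariate Sftpa1 gave -0.92 (adjusted p = 0.154) and Sftpd -0.32 (adjusted p = 0.362) in smoke versus air, and -0.19 (adjusted p = 0.822) and 0.06 (adjusted p = 0.906) in smoke versus e-cigarette. Ciliated scores did not overlap between smoke and e-cigarette libraries, so the fit cannot separate ciliated content from exposure in that comparison. With the gland score, the values in smoke versus air were -0.75 (adjusted p = 0.201) and -0.38 (adjusted p = 0.367). Gland scores did not overlap between smoke and air libraries, so this fit cannot separate gland content from exposure. Within groups, r between the deviations of log2 CPM from the group means and those of the ciliated score was 0.60 for Sftpa1 and 0.74 for Sftpd over 18 libraries, which share their depth scaling. Other lists had r of like size: for Sftpa1, -0.63 with gland, -0.63 with fast muscle and -0.60 with airway epithelium genes, and for Sftpd, -0.61 with cartilage and -0.53 with gland genes. With the thyroid score, smoke versus e-cigarette gave -1.53 for Sftpa1 (adjusted p = 0.378) and -0.75 for Sftpd (adjusted p = 0.531). Thyroid scores did not overlap between these groups either. Without air 4, 5 and 6, e-cigarette versus air turned to 0.16 for Sftpa1 and 0.22 for Sftpd.

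**Figure D4:**
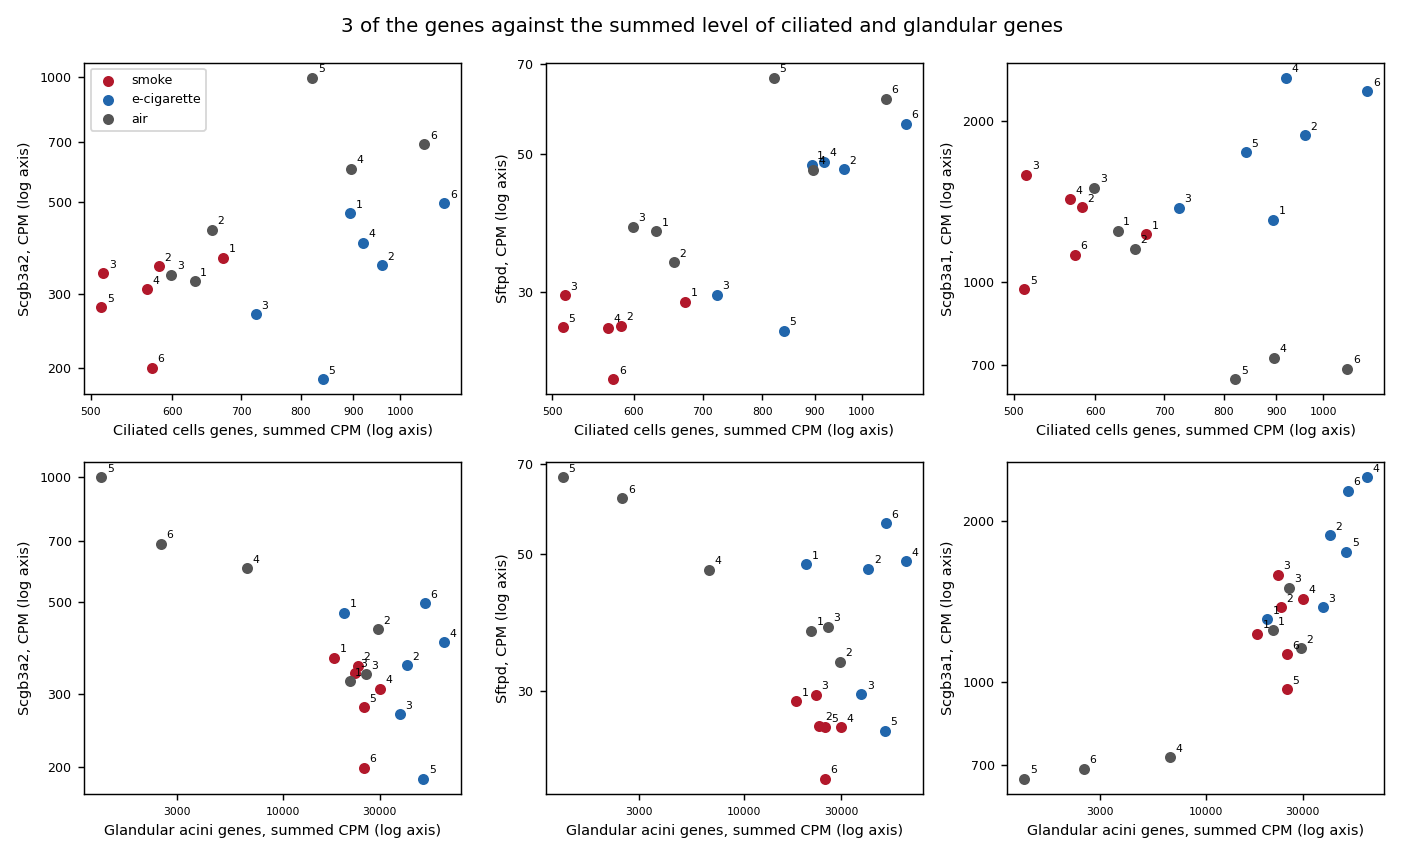
Level of Scgb3a2, Sftpd and Scgb3a1 (CPM, log axes) against the summed CPM of ciliated genes (upper row) and glandular acinar genes (lower row) in each of the 18 libraries, numbered by replicate. Over the 18 libraries, Scgb3a2 and Sftpd tend to be higher where ciliated genes are higher. Scgb3a1 tends to be higher where gland genes are higher, though not among smoke libraries alone. Air 4, 5 and 6 stand apart by gland genes.

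Sftpb was close to the detection limit and changed most in e-cigarette libraries. It had 0.328 to 1.47 CPM in smoke (median 0.789, 6 to 23 counts), 0.0611 to 0.262 CPM in e-cigarette (median 0.166, 1 to 5 counts) and 0.569 to 4.49 CPM in air (median 1.16, 10 to 70 counts). All 6 e-cigarette libraries lay below all 12 others. Sftpb fell in e-cigarette versus air by 3.34 on the log2 scale (SE 0.56, adjusted p = 2.27e-04), and it was higher in smoke than in e-cigarette by 2.36 (SE 0.59, adjusted p = 0.00913). Smoke versus air gave -0.98 (-1.93 to -0.02, adjusted p = 0.239). Both calls held in each of 18 fits that left out 1 library, but all of these fits included air libraries. In a fit of smoke and e-cigarette libraries alone, Sftpb had too few counts to be tested. Its call in smoke versus e-cigarette therefore depends on air libraries being in the fit. Counts of 1 to 5 per library set the size of the fold change only loosely, as the 95% interval of -4.51 to -2.17 against air shows.

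Thyroid genes were low in the same libraries as Sftpb: 8 of 11 fell, 1 rose and 2 were not called in e-cigarette versus air (median -2.88). Over all tested genes, 13.0% were called lower. Within groups, r of Sftpb was 0.09 with the thyroid score. It was 0.55 with gland, 0.53 with airway epithelium and -0.48 with ciliated genes. Libraries e-cigarette 1 and 3, with more thyroid transcripts than the other 4 and fewer than any smoke or air library, had 0.262 and 0.224 CPM of Sftpb. With the thyroid score as a covariate the difference from air was -3.34 with an SE of 1.06 (adjusted p = 0.186), and with only e-cigarette 1 and 3 in the group it was -2.79 (adjusted p = 0.0871). Thyroid scores did not overlap between the groups, so the covariate fit cannot separate thyroid content from exposure. The 7 listed alveolar type 2 genes summed to 80.7 to 147 CPM in e-cigarette libraries, against 182 to 253 CPM in smoke and 186 to 224 CPM in air, but moved in both directions. Of the 6 tested, 2 fell in e-cigarette versus air, Napsa (7.82 CPM in e-cigarette and 75.6 CPM in air) and Abca3, and 2 rose, Slc34a2 and Cxcl15 (6.72 CPM in e-cigarette and 3.84 CPM in air), with a median log2 fold change of -0.09. Sftpc, at means of 3.39 CPM in e-cigarette and 3.41 CPM in air, and Etv5 were not called, and Lamp3 had 0 counts in every group. Their part in the Sftpb difference was not tested. The difference stayed called without air 4, 5 and 6 (-3.94, adjusted p = 1.01e-04), with the ciliated score (-2.76, adjusted p = 0.00110) and with the gland score (-4.43, adjusted p = 7.01e-05). In smoke versus e-cigarette it was 2.36 (adjusted p = 0.567) with the thyroid score, 1.11 (adjusted p = 0.398) with the ciliated score and 1.79 (adjusted p = 0.455) with only e-cigarette 1 and 3. Neither the thyroid nor the ciliated score overlapped between smoke and e-cigarette libraries.

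Cyp2f2 encodes the P450 through which mouse club cells activate naphthalene. It had 1693 to 2085 CPM in smoke (median 1825), 1798 to 2720.3 CPM in e-cigarette (median 2102) and 1096 to 1997 CPM in air (median 1779). The ranges overlapped in every comparison, air 5 was the lowest of the 18 libraries, and e-cigarette 4 and 6 were the highest. In e-cigarette versus air the log2 fold change of 0.37 (SE 0.13, adjusted p = 0.0471) passed the threshold narrowly. It was called in 5 of 18 fits that left out 1 library (0.27 to 0.41, adjusted p 0.0394 to 0.131) and by DESeq2 (0.36, adjusted p = 0.0365), but not by voom (0.24, adjusted p = 0.183) or with RLE scaling in edgeR (0.36, adjusted p = 0.0594). Smoke versus air gave 0.12 (-0.16 to 0.40, adjusted p = 0.668) and smoke versus e-cigarette -0.26 (-0.54 to 0.02, adjusted p = 0.209).

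**Figure D5:**
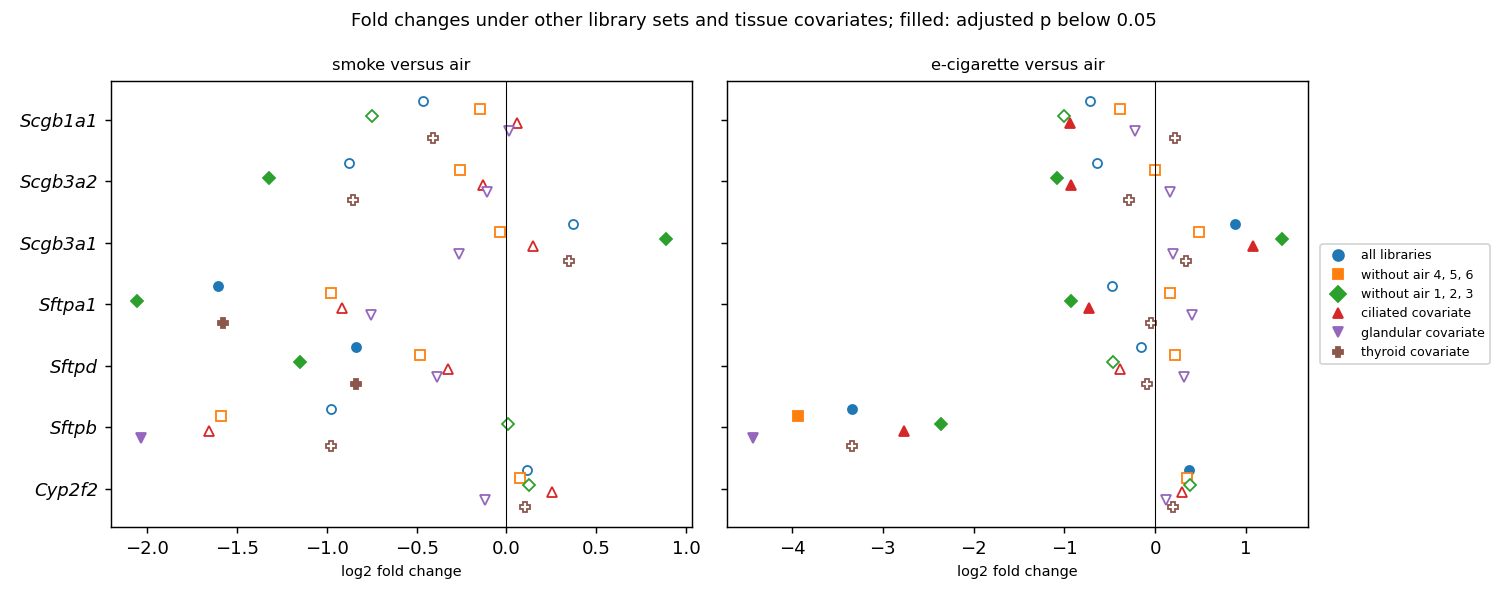
log2 fold changes of the 7 genes in smoke versus air (left) and e-cigarette versus air (right) with all libraries, without air 4 to 6, without air 1 to 3, and with the ciliated, glandular or thyroid score as a covariate; filled symbols have an adjusted p below 0.05. Sftpa1 and Sftpd stay below 0 under each of these settings in smoke versus air, and Sftpb stays below -2 in e-cigarette versus air.

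Ratios within a library depend on the scaling of libraries only through the 0.5 CPM added to each gene before taking logs for the tests. Scgb3a1 exceeded Scgb1a1 3.16- to 6.79-fold in smoke, 3.33- to 18.7-fold in e-cigarette and 1.31- to 5.47-fold in air libraries. The difference of the mean log2 ratio was 1.75 in e-cigarette versus air (two-sided exact permutation test, p = 0.0130, adjusted p = 0.0649) and 0.92 in smoke versus air (exact p = 0.0519, adjusted p = 0.0935). Sftpa1 over Sftpd was 0.108 to 0.207 in smoke, 0.188 to 0.258 in e-cigarette and 0.141 to 0.331 in air. Its mean log2 ratio was lower in smoke than in air by a difference of -0.62 (exact p = 0.0216, adjusted p = 0.0649) and than in e-cigarette by -0.38 (exact p = 0.0216, adjusted p = 0.0649). Scgb3a2 over Scgb1a1 was 0.944 to 1.55 in smoke, 1.20 to 2.11 in e-cigarette and 1.07 to 2.25 in air, and smoke differed from e-cigarette by -0.52 (exact p = 0.0303, adjusted p = 0.0682). Of 9 exact permutation tests, 4 had an unadjusted p below 0.05 and 0 passed after Benjamini-Hochberg adjustment over the 9. With 924 splits the smallest possible p was 0.00216.

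Scgb1a1, Scgb3a2, Sftpa1 and Sftpd varied together from library to library. After removing the group means, log2 CPM of Scgb3a2 correlated over 18 libraries with Sftpd (Pearson r = 0.91, Spearman rho = 0.85) and with Scgb1a1 (r = 0.80, rho = 0.87). The adjusted permutation p over 21 pairs was 4.2e-04 for each r and 0.00231 for each rho. Sftpa1 correlated with Sftpd (r = 0.81, adjusted p = 0.00189, rho = 0.64, adjusted p = 0.0568, permutation tests) and with Scgb3a2 (r = 0.82, adjusted p = 0.00189, rho = 0.50, adjusted p = 0.187, permutation tests), so the rank correlations of Sftpa1 did not pass. The 2 libraries farthest from the median by a single gene of the pair were then left out, so these libraries can differ by pair. Chosen by Scgb3a2, r was 0.87 for Scgb3a2 with Sftpd and 0.73 with Sftpa1. It was 0.70 for Scgb3a2 with Scgb1a1, chosen by Scgb1a1, and 0.83 for Sftpa1 with Sftpd, chosen by Sftpa1. Without air 4, 5 and 6, r was 0.87 for Scgb3a2 with Sftpd, 0.88 for Scgb3a2 with Scgb1a1, 0.67 for Sftpa1 with Sftpd and 0.66 for Scgb3a2 with Sftpa1. Scgb1a1 correlated with Sftpd (r = 0.69, adjusted p = 0.0111, rho = 0.73, adjusted p = 0.0180, permutation tests) and less closely with Sftpa1 (r = 0.61, adjusted p = 0.0192, rho = 0.50, adjusted p = 0.187, permutation tests), with r of 0.54 and 0.51 without the 2 libraries farthest by Scgb1a1. Scgb3a1, Sftpb and Cyp2f2 formed no pair with an adjusted permutation p below 0.05, their r ranging from -0.48 to 0.36.

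The genes whose levels ran most like each of the 7 were taken from 14098 protein-coding candidates by the same within-group r over 18 libraries. For Scgb3a2 they were Cetn2, a centrin of basal bodies (r = 0.94), Gpx8 (0.91) and Capsl (0.90). Sftpd ran with Cfap299 (0.90), Tmem212 (0.89) and Fam183b (0.89). Scgb3a1 ran with Agr2, a disulfide isomerase of mucus-secreting cells (0.91), Pglyrp1, a peptidoglycan recognition protein (0.90), and Tpd52l1 (0.89). For Sftpa1 they were Cldn8 (0.91), Hps3 (0.89) and Rnf170 (0.88), for Scgb1a1 Arhgdig (0.85), Id4 (0.85) and Gipc2 (0.84), for Cyp2f2 Mgat3 (0.89), the chloride channel gene Ano1 (0.85) and Dlec1 (0.85), and for Sftpb Kcnc4 (0.86), Col22a1 (0.85) and St3gal1 (0.85). Picked as the highest of many, these r values are a description only.

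The 3 secretoglobins held 97.3% of all counts assigned to Scgb genes. Of 69 Scgb genes in the table, 34 were protein coding, 33 had no count in any library and 14 were tested. The other 11 tested ones are Scgb1b and Scgb2b genes of chromosome 7, a family that encodes subunits of the salivary androgen-binding proteins. Among them, Scgb2b10, Scgb2b30 and Scgb2b28-ps are annotated as pseudogenes. These near-identical copies and pseudogenes share reads, so their single counts are uncertain. In smoke versus air 1 of the 11 rose, the pseudogene Scgb2b28-ps (mean 1.45 CPM in smoke and 0.364 CPM in air, log2 fold change 1.98, adjusted p = 0.0442). At an unadjusted p below 0.05, 8 were higher and 0 lower, and DESeq2 called 5 and voom 2, all higher. Of the 11, 7 rose and 0 fell in e-cigarette versus air, and DESeq2 and voom each called 7, all higher. Those with the smallest p were the pseudogenes Scgb2b10 (13.6 CPM in e-cigarette and 4.12 CPM in air, log2 fold change 1.73), Scgb2b30 (2.01) and Scgb2b28-ps (1.55). Scgb2b2 (1.99), Scgb1b3 (1.90), Scgb2b7 (1.86) and Scgb1b10 (1.59) also rose, while Scgb2b12 (1.59), Scgb2b20 (1.56), Scgb1b20 (1.63) and Scgb2b24 (1.88) did not pass, with adjusted p between 0.0899 and 0.187. None of the 11 was called in smoke versus e-cigarette by edgeR, DESeq2 or voom, with 0 at an unadjusted p below 0.05. The median log2 fold change over the 11 was 1.70 in smoke versus air and 1.73 in e-cigarette versus air. Gland genes moved with them: 7 of 12 tested gland genes rose in e-cigarette versus air (median 1.94), and 3 of 12 rose in smoke versus air (median 1.62).

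Other genes of these systems came from lists chosen with earlier results of these data known, and are given by counts, to be read against the 25.1% of all tested genes called in e-cigarette versus air, 16.5% in smoke versus e-cigarette and 1.59% in smoke versus air. For other collectins, 2 of 5 had enough counts: Colec12, a scavenger receptor collectin, rose in e-cigarette versus air (64.9 CPM in e-cigarette and 32.5 CPM in air, log2 fold change 1.00, adjusted p = 0.0223), and the other was not called. In smoke versus air none of the 2 was called by edgeR, DESeq2 or voom, with 1 at an unadjusted p below 0.05, and in smoke versus e-cigarette none was called by the 3 tools, with 0 at an unadjusted p below 0.05. Of 10 tested genes of surfactant processing and turnover, none was called in smoke versus air by edgeR, with 3 at an unadjusted p below 0.05, 2 called by DESeq2 and 1 by voom. Of these 10, 6 fell and 1 rose in e-cigarette versus air (median log2 fold change -0.46). Abca3, the lipid pump of lamellar bodies, had 55.8 CPM in e-cigarette and 91.7 CPM in air (-0.72), Ctsh, a protease that processes surfactant proteins, 93.8 CPM in e-cigarette and 157.7 CPM in air (-0.75), and Slc34a2, a phosphate carrier, 8.56 CPM in e-cigarette and 3.75 CPM in air (1.19). Set against e-cigarette, smoke libraries had 6 higher and 2 lower (median 0.42), among them Abca3 (0.96), Adgrf5 (0.54) and Lpcat1 (0.47), all 3 higher in smoke.

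Of 22 club cell enzyme and surface genes, none was called in smoke versus air by edgeR, with 3 at an unadjusted p below 0.05 and 1 called by each of DESeq2 and voom. Of the 22, 5 rose and 1 fell in e-cigarette versus air (median 0.07), a share near the 25.1% of all tested genes: Cldn10, a claudin of club cells, had 49.95 CPM in e-cigarette and 24.7 CPM in air (1.02), Aox3, an aldehyde oxidase, 125.8 CPM in e-cigarette and 81.3 CPM in air (0.63), and Hp, haptoglobin, 89.7 CPM in e-cigarette and 129.6 CPM in air (-0.53). Smoke libraries differed from e-cigarette libraries in 4 of the 22: 3 were lower in smoke, among them Cyp2b10 (-0.41) and Gabrp (-0.54), and Cckar (1.03) was higher. Of 15 airway secretory products, 1 fell in smoke versus air, Bpifa1, an abundant secreted protein of the airway surface (9452 CPM in smoke and 15724 CPM in air, -0.73, adjusted p = 0.0239), and 0 rose. The direction of this list differed by tool: at an unadjusted p below 0.05 edgeR had 1 higher and 2 lower, DESeq2 called 1 higher and 2 lower, and voom called 3 higher and 1 lower. Of the 15, 8 rose and 0 fell in e-cigarette versus air (median 0.92), including the mucin Muc5ac (15.0 CPM in e-cigarette and 6.44 CPM in air, 1.22), Agr2 (213.5 CPM in e-cigarette and 112.6 CPM in air, 0.92) and Msln (875 CPM in e-cigarette and 539 CPM in air, 0.70). Lower in smoke than in e-cigarette were 6 of the 15 (median -0.59), including Lyz2 (-1.03), Agr2 (-0.89) and Tspan8 (-0.55).

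Among 23 regulators of club cell genes, none was called in smoke versus air by edgeR, with 5 at an unadjusted p below 0.05 and 1 called by each of DESeq2 and voom. Of the 23, 3 rose and 2 fell in e-cigarette versus air (median 0.08), again a share near the 25.1% of all tested genes. Ehf, an epithelial ETS factor, had 356 CPM in e-cigarette and 168 CPM in air (1.09, adjusted p = 2.11e-06), Grhl2, an epithelial factor, 63.4 CPM in e-cigarette and 49.1 CPM in air (0.37, adjusted p = 0.00760), and Nkx2-1, a factor of lung and thyroid, 38.9 CPM in e-cigarette and 171 CPM in air (-2.13, adjusted p = 8.82e-05). Nkx2-1 is also made by thyroid cells, whose transcripts were lower in the e-cigarette libraries, and its level in airway cells alone was not measured. Nkx2-1 (1.79) and Cebpa (0.57) were higher and Ehf (-0.68) was lower in smoke versus e-cigarette. Of 10 tested receptors of secretoglobins and collectins, none was called in smoke versus air by edgeR, DESeq2 or voom, with 5 at an unadjusted p below 0.05. Of the receptors, 3 fell and 0 rose in e-cigarette versus air (median 0.15): Lrp2, the endocytic receptor megalin, which thyroid cells also make (6.76 CPM in e-cigarette and 40.9 CPM in air, -2.59), Tlr2, a receptor of bacterial lipopeptides (10.4 CPM in e-cigarette and 39.3 CPM in air, -1.91), and Calr, calreticulin, a collectin receptor component (521 CPM in e-cigarette and 821 CPM in air, -0.66). All 3 were higher in smoke than in e-cigarette (2.10, 1.35 and 0.62), and 1 of the 10, Cd14, was lower, a gene outside the naming rule.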

How the data were processed

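Raw read counts per gene were deposited in 1 table for 18 larynx libraries in 3 groups of 6. Per the labels' protocols, RNA was isolated with a PureLink kit and libraries were made from 1 µg RNA with a NEBNext Ultra kit, so strand is not recorded. The tools named, per the submitters' processing notes, are STAR, whose version is not given in the sources used here, and featureCounts 1.5.0-p3, with the builds GRCm38 and mm10. The deposited counts are whole numbers with no normalization by the authors.

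From these counts, edgeR 4.0.16 in R 4.3.3 fitted 1 quasi-likelihood model (robust) to all libraries and groups, with trimmed-mean (TMM) scaling, after a low count filter (minimum count 10, minimum total count 15) that left 17537 of 54532 genes. CPM use the TMM-scaled library sizes. P-values were adjusted by the Benjamini-Hochberg method over all tested genes, with a threshold of 0.05. The script was tested on simulated counts. DESeq2 1.42.0, limma 3.58.1 (voom with weights per sample), tissue scores as covariates, omitted libraries, a replicate block and different filters and scalings were alternatives. Ratios within a library had 0.5 CPM added to each gene and were tested by exact permutation. Libraries within a group differed beyond counting noise in all 45 pairs (chi-square per degree of freedom 15.4 to 134). Depth limits Sftpb most, with 1 to 5 counts per e-cigarette library.

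Every one of the 7 genes is named, as are up to 3 called genes of smallest p per list and comparison, each tested Scgb gene, and the 3 protein-coding genes most like each of the 7 (mean of at least 1 CPM). The genes and lists were chosen with earlier results of these data known. Promoter letters came from RefSeq (GRCm38.p6), and those of Scgb1a1, Scgb3a2 and Sftpd were not used here.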

Additional observations from a re-analysis of the deposited data

Results flagged for a closer look

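Outlying libraries were looked for in 30 groups of 6 values, of which chance alone marks about 1 in 20, and 2 were found, both ratios in air libraries. Scgb3a2 over Scgb1a1 was 2.25 in air 5, against 1.07 to 1.37 in the other 5 air libraries. Sftpa1 over Sftpd was 0.141 in air 3, against 0.267 to 0.331 in the other 5 air libraries. The cause was not tested in either case. Without air 3, 6 of the 9 ratio tests passed the threshold, against 0 with all libraries. Air 3 was flagged from these same ratio values, so the count without it is a description only.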

How the results depend on the processing

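Of 944 fold changes and ratio differences under alternatives, 803 kept their direction and side of the threshold, 71 were weaker, 45 stronger and 25 turned direction. The causes were not tested. With all libraries, 2, 3 and 3 of the 7 genes were called in smoke versus air, e-cigarette versus air and smoke versus e-cigarette, beside 279, 4406 and 2897 of all tested genes; the number over all tested genes follows each count in brackets. In smoke versus air it was 1 (184) without a low count filter, Sftpa1, 0 (129) with the ciliated score, 0 (25) at an adjusted p below 0.01, 0 (451) without air 4, 5 and 6, 4 (2198) without air 1, 2 and 3, 4 (1114) by voom, and 1, Sftpb, with the gland score (684) or with 4 tissue scores (1000), of gland, cartilage, thyroid and muscle. In e-cigarette versus air it was 5 (4233) with the ciliated score, 5 (4906) by DESeq2, 0 (48) with the thyroid score, 0 (688) without e-cigarette 2, 4, 5 and 6, and 1, Sftpb, with the gland score (4239), with 4 scores (646) or without air 4, 5 and 6 (4539). In smoke versus e-cigarette it was 0 with the ciliated (623), thyroid (0) or 4 scores (6) and without e-cigarette 2, 4, 5 and 6 (147), and 1 (1324), Sftpb, at an adjusted p below 0.01. Leaving out 1 library gave 1 to 2, 2 to 4 and 3 to 3 calls in the 3 comparisons. Adding 0.1 CPM let 3 ratio tests pass, and leaving out 1 library let 0 to 6 pass.

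Directions turned as follows (log2 fold change). In smoke versus air, Scgb1a1 was 0.059 with the ciliated and 0.013 with the gland score; Scgb3a1 was -0.27 with the gland score, -0.23 with 4 scores and -0.037 without air 4, 5 and 6; Cyp2f2 was -0.12 with the gland score and -0.10 with 4 scores, and Sftpb 0.0066 without air 1, 2 and 3. In e-cigarette versus air, Scgb1a1 was 0.22 with the thyroid score and 0.039 with 4 scores, Scgb3a2 0.17 with the gland score, Sftpa1 0.41 with the gland score, 0.64 with 4 scores and 0.16 without air 4, 5 and 6, and Sftpd 0.32, 0.068 and 0.22 under the same settings. With 4 scores Scgb3a1 was -0.11 and Cyp2f2 -0.046. In smoke versus e-cigarette, Scgb3a2 was 0.80 and Sftpd 0.061 with the ciliated score, Scgb1a1 was -0.63 with the thyroid score, -0.16 with 4 scores and -0.12 without e-cigarette 2, 4, 5 and 6, and Scgb3a1 was 0.00997 with the thyroid score. The gland score was chosen after seeing the data. Thyroid scores of e-cigarette libraries did not overlap those of smoke or air, nor did ciliated scores overlap between smoke and e-cigarette libraries. Gland scores did not overlap between smoke and air libraries, nor did fast muscle scores between e-cigarette and air libraries. Fits with these scores, alone or among the 4, cannot separate the tissue from the exposure there. Sftpb had too few counts to be tested in a fit of smoke and e-cigarette libraries alone.

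With the replicate number as a block, 0, 2 and 2 of the 7 genes were called in the 3 comparisons, beside 39, 3836 and 2386 of all tested genes. Deviations from the group means in same-numbered libraries of different groups had correlations of -0.446 to 0.157 over 18 pairs. Whether same-numbered libraries shared a batch was not tested.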
